A study of Mus musculus with 12 samples.

Results

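The genes described here are those of the extracellular matrix and of the integrins in mouse liver, chosen by name: collagen chains, laminin chains, Adamts, Mmp, Timp, Lox and integrin genes, together with Fn1, Sparc, Sparcl1, Dcn, Lum, Bgn, Nid1, Nid2, Hspg2 and Tgfbi. The gene table held 79 of them among 12086 genes. A table of mouse gene names holds 144 symbols that match the names, and the other 65, Lox, Timp1, Mmp9 and Col4a3 among them, were not analysed here. By role the 79 were 7 fibrillar collagen chains, 8 other collagen chains, 18 basement membrane genes (10 of them laminin chains), 7 matrix glycoproteins and proteoglycans, 3 lysyl oxidases, 16 genes of the Mmp and Adamts families, 2 inhibitors of metalloproteinases, 17 integrin chains and Itgb1bp1, whose product binds an integrin tail.

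Livers came from wild-type male C57BL/6 mice killed after fasting at 12 weeks of age (postnatal day 84). The 35 dams of the study ate either RM1 control chow (7% simple carbohydrates and 3% lipids by weight) or an obesogenic diet (10% and 20%) with sweetened condensed milk (55% and 8%, with 8% protein), and kept that diet until weaning. Litters were set to 6 pups, and sons went onto control chow or the obesogenic diet on postnatal day 21. CC sons had control-fed dams and ate control chow, CO sons had control-fed dams and ate the obesogenic diet, OC sons had obesogenic-fed dams and ate control chow, and in OO both dam and son ate the obesogenic diet. The labels list 3 samples in each group, and the table gave 3 libraries for CC, OC and OO and 2 for CO. The labels do not say which sons shared a litter, though the titles of 1 OC and 1 OO sample share a number whose meaning is not explained and whose libraries cannot be told from the column names. The p-values measure the spread between these libraries, which may be partly technical or partly litter. Libraries are written below as the group and the number in the column name, and the numbers pair nothing.

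The extracellular matrix is the scaffold of secreted proteins around cells. Fibrillar collagens form its cables, collagen IV and laminins form the sheet called basement membrane, and lysyl oxidases cross-link the fibers. Many Mmp and Adamts enzymes cut proteins of the matrix. Integrins are receptors made of an alpha and a beta chain, which tie the matrix to the cytoskeleton. In liver, hepatic stellate cells and portal fibroblasts make most of the fibrillar collagen, sinusoids carry only a sparse matrix, and excess matrix is known as fibrosis.

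Values are gene counts that were scaled library by library, to judge by their steps, and they are close to CPM. They are called scaled counts here. Depth recovered from the steps between low values ran from 3976154 reads in OO.1 to 27837633 in OO.0, and the next deepest library had 7969059. A floor of 3 reads lay between 0.1 and 0.829 scaled counts, for counting error only, and Itga10 and Itgb8 fell under it in some library. All 79 genes passed the filter of 1 scaled count in 3 libraries, as did all 12086 genes of the table, and 77 of the 79 reached 1 in every library. In bulk tissue, fewer cells of a type and less RNA per cell cannot be told apart. Hepatocyte markers were abundant in every library, with a summed level of 33150 to 38952 in CC, 23841 and 33537 in CO, 27094 to 32396 in OC and 22562 to 29193 in OO. For the sons' diet 6 of 7 lay below 0 and 2 fell, Tat (-1.23, adjusted p 0.0149 in limma's test) and Cps1 (-1.06, adjusted p 0.0318), beside 1.72% of all genes. Several libraries stood apart from the rest of their groups in markers of other cells or states. CO.1 and OC.1 had summed acute phase levels of 88329 and 60347, against 17982 to 30541 in the other 9, and summed neutrophil markers of 928 and 243, against 6.08 to 41.2. Only 4 of 8 neutrophil markers were measured, and Lcn2 is on both lists, so the 2 sums are not separate signals. The median over the 4 of the log2 deviation from the gene's mean was 2.49 in CO.1. In OC.1 it was -0.29, between -0.44 in OC.0 and -0.21 in OC.2, so OC.1 stood apart in the neutrophil sum only. OC.0 and CO.1 carried exocrine pancreas RNA, with summed markers of 6786 and 4343, against 1022 in CC.1 and 7.60 to 145 in the other 8. Skeletal muscle markers summed to 149 in OO.0 and 89.4 in CC.0, against 1.11 to 45.8 in the other 9, and erythroid and platelet markers to 602 in CO.0, against 186 to 415 in the other 10. The part of these signals, and of the hepatocyte markers, in the results was not tested. For several members whose call changes without 1 of these libraries, values are given with and without it. Genes outside the 79 are given from the fit of all 11 libraries only.

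In sons on the obesogenic diet, 3 collagen chains and Adamtsl2, a secreted protein of the fibrillin microfibrils, rose, and the protease gene Adamts7 fell. The effect is the mean of the difference between CO and CC and that between OO and OC, in log2(scaled count + 0.5), called at a limma adjusted p under 0.05 over all 12086 genes. By this rule 5 of 79 genes were called, and 3.96% of all genes were. Higher were Col4a1, Col6a3, Col5a2 and Adamtsl2, 4 of 79 beside 2.24% of all genes, and lower was Adamts7, 1 of 79 beside 1.72%. The median difference over the 79 genes was 0.25, with 56 above 0, while over all genes it was 0.00, with 6023 of 12086 above 0. At an unadjusted p under 0.05 there were 27 members higher and 8 lower, and 1173 and 1166 of all genes. For the sons' diet the same all-gene values apply to the roles and lists below, where a single gene is a large part of a small class. Without CO.1 the members' median was 0.14, without OC.0 and CO.1 it was 0.16, and without OC.1 and CO.1 it was 0.15. The count of 5 was 0 without OC.0 and CO.1 together, where the differences of the 5 genes were 0.75 for Adamtsl2, 0.51 for Col4a1, 0.83 for Col6a3, 0.62 for Col5a2 and -0.85 for Adamts7, and 2, Col4a1 and Adamtsl2, without OC.1 and CO.1 together. With 1 library left out it was 3 without CC.0, CC.2, CO.1, OC.0 or OO.1, 8 without OC.1, and 9 without CC.1 or CO.0. Fits without CO.0 or CO.1 assume that the lone CO library varies like the other groups. The share of 3.96% belongs to the fit of all 11 libraries, and the shares in the other fits are not given here. Whether these counts moved apart from those of all genes can therefore not be read from them.

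**Figure D1:**
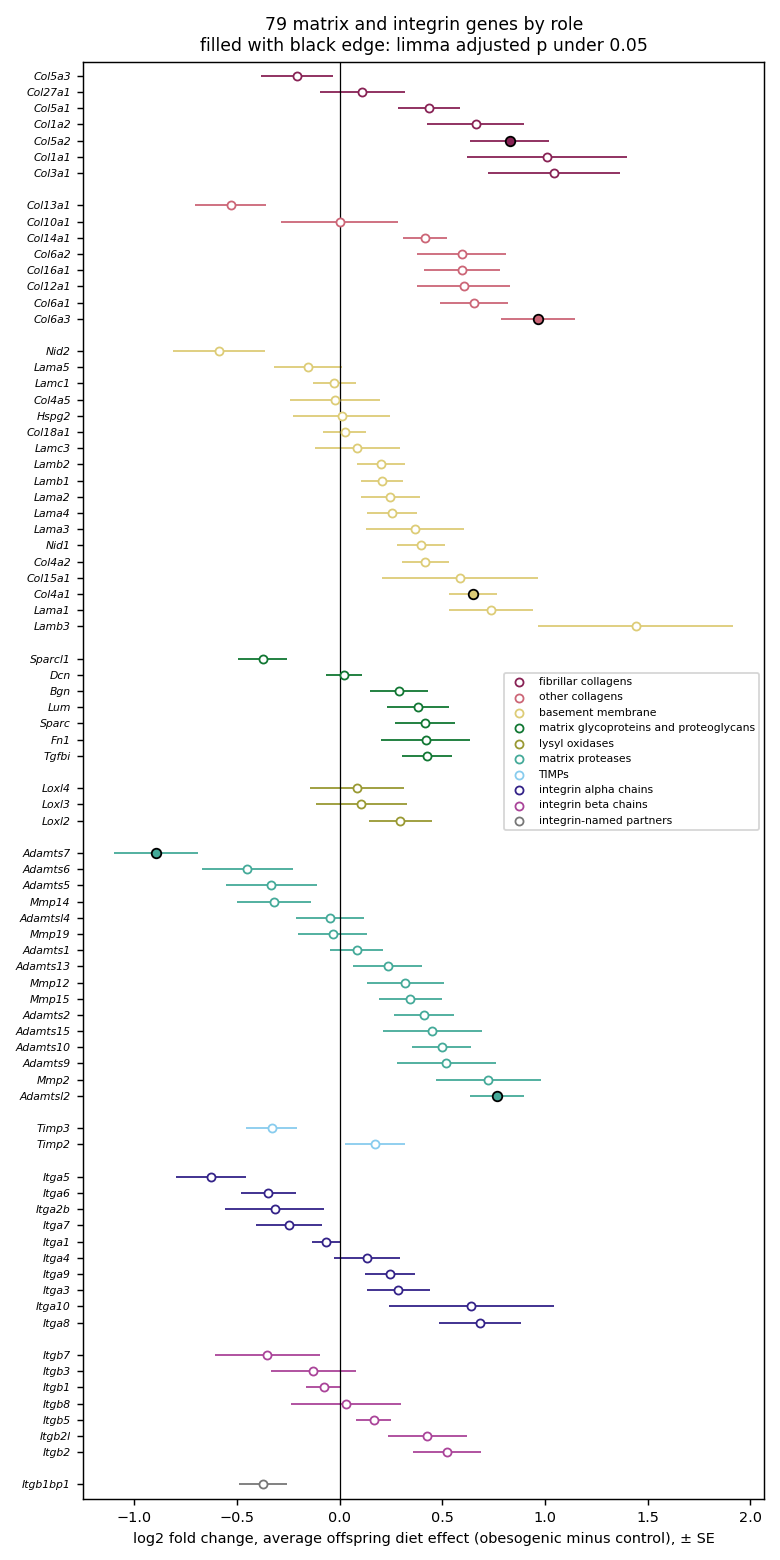
Log2 difference (average offspring diet effect, obesogenic minus control) on the horizontal axis for each of the 79 genes, ordered by role on the vertical axis, with bars of ± 1 SE from limma over 11 libraries. Filled points with a black edge mark the 5 genes past an adjusted p of 0.05, and most collagen chains lie right of 0 while integrin chains lie on both sides.

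A second reading needs no model. It asks whether the 5 libraries of obesogenic-fed sons all lie beyond the 6 libraries of control-fed sons. The libraries are those of the test above, so the reading is not independent of its calls. All 5 lay above in 6 of 79 members (Col4a1, Col6a3, Adamtsl2, Lama1, Itga8 and Adamts10), beside 2.08% of all genes. They lay below in 1 member, Itga6, beside 1.76% of all genes. Col5a2 and Adamts7 passed the test with groups that overlapped in single libraries. CO.1 held the highest value of 19 members and OO.2 of 20, while the lowest values were most often in CC libraries, with 17, 13 and 15 members in CC.0, CC.1 and CC.2. Against that order, the control-fed library OC.0, which held the most pancreas RNA, was highest for 14 members, and CO.0 and OO.2 were lowest for 11 and 7. OO.1 was highest for 12.

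**Figure D2:**
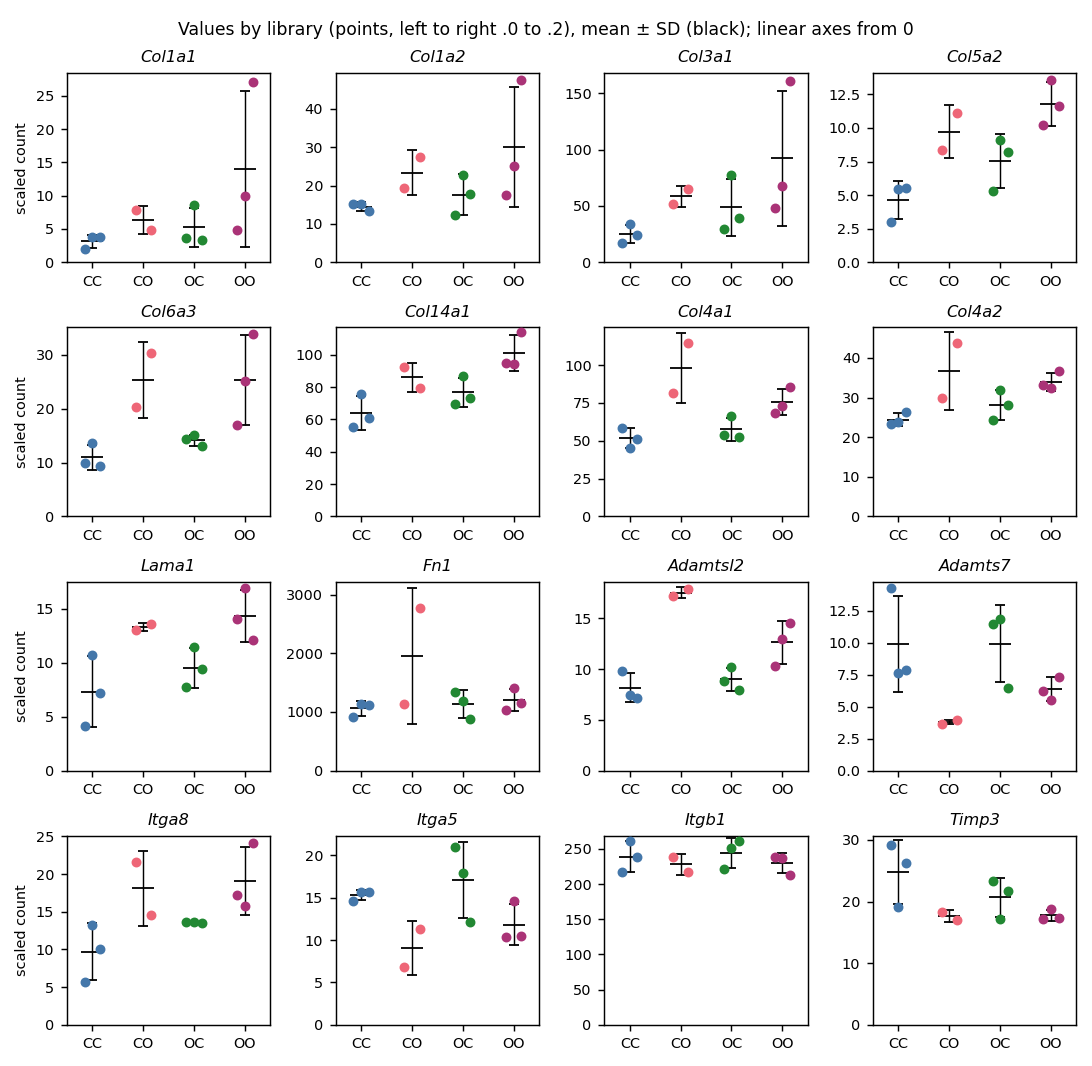
Scaled counts on linear axes from 0 for 16 genes, by group (CC, CO, OC, OO), with 1 point per library and the mean ± SD in black. Col4a1, Col6a3, Adamtsl2, Lama1 and Itga8 have every CO and OO point above every CC and OC point, while Fn1 and Col1a1 have single libraries far above the rest, CO.1 at 2768 and OO.2 at 27.1.

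Of the basement membrane genes 1 of 18 rose, Col4a1, beside 2.24% of all genes. The median difference with the sons' diet was 0.23 with 14 of 18 above 0. Collagen IV is the network collagen of basement membranes, and Col4a1 and Col4a2 encode the chains of its common trimer. Col4a1 (ENSMUSG00000031502) stood at 58.5, 45.4 and 51.4 in CC, 81.7 and 114 in CO, 53.6, 66.1 and 52.7 in OC, and 68.6, 73.3 and 85.5 in OO. All 5 libraries of obesogenic-fed sons were above all 6 of control-fed sons, narrowly where OO.0 met OC.1. The average difference was 0.65 ± 0.12 (SE), a 1.57-fold higher level, with an adjusted p of 0.0115 in limma's test. It kept its call in each of the 11 fits that left out 1 library (0.53 to 0.77), and lost it without OC.0 and CO.1 together, where the difference was 0.51 (adjusted p 0.107). Col4a2 stood at 23.3, 23.7 and 26.3 in CC, 29.8 and 43.7 in CO, 24.3, 31.9 and 28 in OC, and 33.1, 32.4 and 36.6 in OO. Its lowest obesogenic-fed library, CO.0, lay within the OC range. The difference was 0.42 ± 0.11 with an adjusted p of 0.0648, and 0.55 without CO.0, resting on CO.1 as the only CO library.

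Col4a1 and Col4a2 lie head to head on mouse chromosome 8, and the stretch across both starts is shown because the pair is read from it in opposite directions. In the RefSeq promoter windows of build GRCm38.p6 the Col4a2 start is at 11312805 on the plus strand and the Col4a1 start at 11312826 on the minus strand, 22 bases counted from start to start. A gene table of that build ends Col4a1 further out, at 11312889. The stretch covers chr8:11312801-11312830 on the plus strand, written 5′ to 3′, with the bases from one start to the other in capitals.
Col4a1 and Col4a2 starts: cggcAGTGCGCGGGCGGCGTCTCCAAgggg
Over the 11 libraries the log2 values of both genes had a Pearson r of 0.90, a description in which all points share their libraries. Exons of Col4a1 and Col4a2 overlap on opposite strands in the annotation, and the sources used here do not give whether counting used strand, so reads of the shared bases cannot be told apart. Of all members, the 5 whose values followed those of Col4a1 most closely over the 11 libraries were Adamtsl2 (r 0.95), Col4a2 (0.90), Tgfbi (0.87), Col6a1 (0.84) and Col6a3 (0.84).

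Laminins are cross-shaped trimers of an alpha, a beta and a gamma chain. None of the 10 laminin chains passed the test, beside 3.96% of all genes. At an unadjusted p under 0.05, 2 were higher and 0 lower, and 8 of 10 lay above 0 with a median of 0.23. Lama1, the alpha chain of laminin-111, was at 4.12, 10.7 and 7.19 in CC, 13 and 13.5 in CO, 7.75, 11.4 and 9.40 in OC, and 14, 16.9 and 12.1 in OO. The diets did not overlap, with OO.2 just above OC.1, and the difference was 0.74 ± 0.21 (adjusted p 0.0687), or 0.89 with a limma adjusted p of 0.0202 without CC.1. Lamb3, a beta chain of epithelial laminin-332 named here after its values were seen, was at 12.8, 6.54 and 20.2 in CC, 12.0 and 86.9 in CO, 8.34, 7.00 and 19.2 in OC, and 35.8, 19.1 and 39.1 in OO. Its difference of 1.44 ± 0.48 was the largest of the 79 and missed the threshold (adjusted p 0.121). CO.1 was the highest library and CO.0 lay among the control-fed ones. Without CO.0 the difference was 2.14, resting on CO.1 as the only CO library. Lamc1, the gamma chain shared by most laminins, was within 21.2 to 32.2 in all 11 libraries, with a difference of -0.03. Lama5 was within 5.56 to 13 (-0.15).

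Nid1 encodes nidogen, the link between laminin and collagen IV. It was at 17.6, 15.3 and 18.1 in CC, 21 and 29 in CO, 23.5, 20.4 and 17.6 in OC, and 22.1, 26.8 and 24.8 in OO. CC was the low group, and OC.0 lay above CO.0 and OO.0. The difference was 0.40 ± 0.12 (adjusted p 0.0843), and 0.51 without CO.0, resting on CO.1 as the only CO library. The remaining members of the class, Col15a1, Col18a1, Col4a5, Hspg2, Lama2, Lama3, Lama4, Lamb1, Lamb2, Lamc3 and Nid2, had differences from -0.59 in Nid2 to 0.59 in Col15a1 and none passed.

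Fibrillar collagens were the class with the largest median difference between the sons' diets, 0.66, with 6 of 7 chains above 0. In the test 1 of 7 was called, beside 3.96% of all genes. At an unadjusted p under 0.05, 5 were higher and 0 lower. Col5a2 (ENSMUSG00000026042), a chain of collagen V, which seeds and limits the width of collagen I fibrils, was at 3.01, 5.42 and 5.53 in CC, 8.33 and 11.1 in CO, 5.29, 9.12 and 8.22 in OC, and 10.3, 13.5 and 11.6 in OO. All OO libraries were above all control-fed ones, and OC.1 lay above CO.0. The difference was 0.83 ± 0.19, or 1.78-fold, with an adjusted p of 0.0360. The call held in 3 of 11 fits without 1 library (without CC.1, CO.0 or OC.1), and in the 11 fits the difference ran from 0.70 to 0.93 and the adjusted p from 0.0343 to 0.136.

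Collagen I and III, the main fibrillar collagens of liver, varied more within groups. Col1a1 was at 2.06, 3.74 and 3.73 in CC, 7.83 and 4.8 in CO, 3.64, 8.67 and 3.38 in OC, and 4.84, 9.95 and 27.1 in OO. OO.2 stood far above every other library, and OC.1 was above both CO libraries. The difference of 1.01 ± 0.39 did not pass (adjusted p 0.179). Col1a2, the other chain of collagen I, was at 15.2, 15.1 and 13.3 in CC, 19.3 and 27.5 in CO, 12.2, 22.8 and 17.9 in OC, and 17.6, 25.2 and 47.5 in OO. Here too OO.2 was highest, and the difference was 0.66 ± 0.24 (adjusted p 0.148). Col3a1, the chain of collagen III, was at 17.4, 33.7 and 24.6 in CC, 52.0 and 65.3 in CO, 29.4, 77.4 and 39.5 in OC, and 48.6, 67.7 and 161 in OO. OC.1, at 77.4, was higher than every library except OO.2. The difference was 1.04 ± 0.32 (adjusted p 0.0962), and without OC.1 it was 1.24 and passed with an adjusted p of 0.0465. Across the 11 libraries Col1a1 and Col3a1 had an r of 0.93, and Col3a1 and Col5a2, neighbours on chromosome 1, an r of 0.86.

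Col5a1, the partner chain of Col5a2, ranged from 6.82 to 8.15 in CC, 8.00 to 14.2 in CO, 9.25 to 10.3 in OC and 11 to 14.9 in OO. Its difference was 0.44 ± 0.15 (adjusted p 0.139), and 0.63 without CO.0, resting on CO.1 as the only CO library. Col5a3 had a difference of -0.21. Col27a1, a fibrillar collagen best known from cartilage, differed by 0.11 between the sons' diets and is taken up with the dams' diet.

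Among the other 8 collagen chains 1 rose, Col6a3, beside 2.24% of all genes. Of the chains 7 of 8 lay above 0, with a median of 0.59, and 6 were higher and 1 lower at an unadjusted p under 0.05. Collagen VI forms beaded filaments near cell surfaces from the chains of Col6a1, Col6a2 and Col6a3. Col6a3 (ENSMUSG00000048126) was at 9.83, 13.7 and 9.40 in CC, 20.3 and 30.3 in CO, 14.3, 15.1 and 13.1 in OC, and 17.0, 25.2 and 33.8 in OO. The lowest obesogenic-fed library, OO.0, was above the highest control-fed one, OC.1. The difference was 0.97 ± 0.18, or 1.95-fold, with an adjusted p of 0.0131. It kept the call in 10 of 11 fits without 1 library and lost it without CO.1 (0.82, adjusted p 0.0635), as it did without OC.0 and CO.1 together (0.83, adjusted p 0.122) and without OC.1 and CO.1 together (0.85, adjusted p 0.0806).

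The 250 bases before the Col6a3 start are printed because Col6a3 had the largest called difference, at chr1:90843972-90844221 on the minus strand (RefSeq, GRCm38.p6), written 5′ to 3′ along the gene. No letters are in capitals. The motif TATAAA was not found in it on either strand, the motif GGGCGG was absent from these letters too, and so was the motif CCAAT.
Col6a3: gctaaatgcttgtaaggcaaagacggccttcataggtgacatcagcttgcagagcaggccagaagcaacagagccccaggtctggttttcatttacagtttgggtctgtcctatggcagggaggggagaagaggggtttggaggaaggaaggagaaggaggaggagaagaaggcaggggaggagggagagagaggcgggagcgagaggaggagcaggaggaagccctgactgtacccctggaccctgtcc

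Col6a1 was at 8.24, 6.92 and 8.98 in CC, 13.7 and 16.8 in CO, 9.87, 14.3 and 10.9 in OC, and 11.6, 15.2 and 21.7 in OO. OC.1 lay above CO.0 and OO.0, and the difference was 0.65 ± 0.17 with an adjusted p of 0.0508. Without OC.1 it passed (0.73, limma adjusted p 0.0405), as it did without OO.0 (0.76, limma adjusted p 0.0293). With all 11 libraries it passed under median-of-ratios scaling, a filter of 5 scaled counts in 3 libraries and robust variance (limma adjusted p 0.0490, 0.0479 and 0.0418). Under quantile scaling or other pseudocounts it did not. Col6a2, adjacent to Col6a1 on chromosome 10, differed by 0.59 ± 0.22 (adjusted p 0.157). The r with Col6a1 over the 11 libraries was 0.85 for Col6a2 and 0.87 for Col6a3. The summed level of the collagen VI chains was 21.4 to 24.1 in CC, 37.8 and 55.2 in CO, 28.1 to 33.5 in OC, and 33.3 to 65.2 in OO.

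Col14a1, a collagen that sits on fibril surfaces, was at 55.2, 75.7 and 61.1 in CC, 92.2 and 79.7 in CO, 69.8, 87.0 and 73.3 in OC, and 95.1, 94.0 and 114 in OO. OO was above all control-fed libraries, and OC.1 was above CO.1. The difference was 0.41 ± 0.11 with an adjusted p of 0.0537. Without OC.1 it passed (0.46, limma adjusted p 0.0415), as it did without CC.1 (0.48, limma adjusted p 0.0292). With all 11 libraries it passed under quantile scaling and robust variance (limma adjusted p 0.0442 and 0.0457), and not under the other choices of processing. Col16a1, of the same family, was at 2.24 to 3.17 in CC, 4.00 and 5.02 in CO, 3.08 to 3.80 in OC and 3.67 to 7.35 in OO, with a difference of 0.59 ± 0.18 (adjusted p 0.0994). Col12a1 had a difference of 0.60 and Col10a1 of 0.00. Col13a1, a transmembrane collagen, went the other way, with 15.7, 10.1 and 9.26 in CC, 6.67 and 6.55 in CO, 7.52 to 9.28 in OC and 4.74 to 8.02 in OO. Its difference was -0.53 ± 0.17 (adjusted p 0.114). Over all 20 collagen chains the median was 0.59, with 17 above 0 and 3 called higher, beside 2.24% of all genes. At an unadjusted p under 0.05, 13 were higher and 1 lower.

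**Figure D3:**
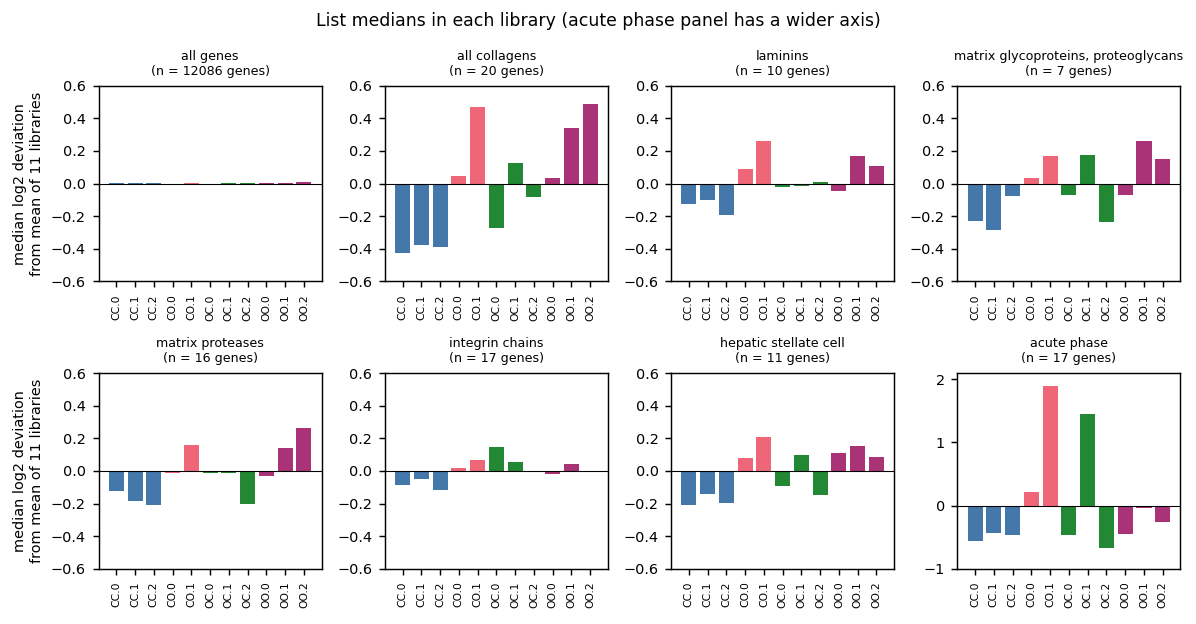
Bars give, for each of 11 libraries, the median over the genes of a list of their log2 deviation from the gene's mean of all libraries, coloured by group. The 20 collagens lie between -0.42 and -0.38 in the CC libraries and reach 0.47 in CO.1 and 0.49 in OO.2, integrin chains stay near 0, and the acute phase panel, on a wider axis, peaks in CO.1 and OC.1.

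None of the 7 glycoproteins and proteoglycans passed the test for the sons' diet, beside 3.96% of all genes. At an unadjusted p under 0.05, 3 were higher and 1 lower, and 6 of 7 lay above 0 with a median of 0.38. Tgfbi, a secreted collagen- and integrin-binding protein, was at 32.7, 30.5 and 39.9 in CC, 49.3 and 55.0 in CO, 34.5, 50 and 35.5 in OC, and 46.8, 41.8 and 53.3 in OO. OC.1 was the control-fed library among the high ones. The difference was 0.43 ± 0.12 (adjusted p 0.0742), and without OC.1 it was 0.51 and passed (adjusted p 0.0254). Sparc, a collagen-binding protein of remodelling matrix, was at 44.5, 35.5 and 35.2 in CC, 48.3 and 53.3 in CO, 36.9, 56.9 and 41.0 in OC, and 47.7, 56.7 and 77.8 in OO. OO.2 was highest, and OC.1 was above the CO libraries. The difference was 0.42 ± 0.15 (adjusted p 0.146). Lum, a small proteoglycan on collagen fibrils, was within 9.16 to 12.3 in CC, 12.7 and 16 in CO, 10.2 to 14.1 in OC and 11 to 17.5 in OO (0.38, adjusted p 0.194).

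Fn1 encodes fibronectin, which hepatocytes also secrete into plasma. It was at 919.5, 1142 and 1119 in CC, 1134 and 2768 in CO, 1332, 1194 and 877 in OC, and 1035, 1402 and 1159 in OO. Only CO.1 left the range from 877 to 1402. It is the library with the highest summed acute phase level and neutrophil markers, and it also carried pancreas RNA. OC.1, next highest in the acute phase sum, was at 1194. The part of these signals in the Fn1 values was not tested. The difference was 0.42 ± 0.22 (adjusted p 0.322). Without CO.0 it was 0.74 and passed (adjusted p 0.0397), resting on CO.1 as the only CO library. Sparcl1, related to Sparc, lay lower in CO, at 6.33 and 6.99, than in CC, at 8.79 to 10.6, in OC, at 11.3 to 14.9, or in OO, at 9.31 to 12.2. Its difference with the sons' diet was -0.37 ± 0.12 (adjusted p 0.109). Bgn (0.29) and Dcn (0.02), further small proteoglycans, did not pass.

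No lysyl oxidase passed, beside 3.96% of all genes, and 0 of 3 reached an unadjusted p under 0.05. Loxl2 was at 3.01 to 3.18 in CC, 3.00 and 3.93 in CO, 2.94 to 3.52 in OC, and 3.81, 5.81 and 4.90 in OO, so that OO was the high group, though OO.0 was below CO.1. The differences with the sons' diet were 0.29 for Loxl2, 0.10 for Loxl3 and 0.08 for Loxl4. All 3 were low, with group means between 1.80 and 4.84.

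Among the 16 Mmp and Adamts genes Adamtsl2 rose and Adamts7 fell with the sons' diet, beside 2.24% and 1.72% of all genes. Adamtsl2 belongs to the Adamts-like proteins, which lack the protease domain, and is known to bind fibrillin microfibrils and a latent TGF-beta binding protein. Adamtsl2 (ENSMUSG00000036040) was at 9.83, 7.48 and 7.19 in CC, 17.2 and 17.9 in CO, 8.81, 10.2 and 7.93 in OC, and 10.3, 13 and 14.5 in OO. CO was highest, and OO.0 lay only just above OC.1, so the diets did not overlap. The difference was 0.77 ± 0.13, or 1.70-fold, with an adjusted p of 0.00929, the lowest of the 79 genes. It kept the call in each of 11 fits without 1 library (0.71 to 0.83). Without OC.0 and CO.1 together the difference was nearly as large, 0.75, with an adjusted p of 0.0797.

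The 250 bases before the Adamtsl2 start are shown because the gene had the lowest p and both motifs in capitals stand in it. They lie at chr2:27079129-27079378 on the plus strand (RefSeq, GRCm38.p6), with a GGGCGG from 83 to 78 bases and a TATAAA from 30 to 25 bases before the start.
Adamtsl2: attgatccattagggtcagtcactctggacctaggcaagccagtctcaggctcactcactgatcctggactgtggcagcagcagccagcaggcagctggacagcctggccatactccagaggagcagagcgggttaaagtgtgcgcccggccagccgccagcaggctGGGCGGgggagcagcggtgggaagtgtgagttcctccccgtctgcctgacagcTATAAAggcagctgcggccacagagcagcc
RefSeq windows were on hand for 52 of the 79 genes, in 57 windows. Counting both strands of the 250 bases before each start, TATAAA stood in 5 of 57 member windows (8.77%) and in 12.4% of 32851 windows of all genes. GGGCGG stood in 32 of 57 (56.1%) and in 32.7% of all, and CCAAT in 13 of 57 (22.8%) and in 33.8% of all. A match is only a run of letters, and these shares are a description.

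Adamts7 encodes a secreted metalloprotease known from cartilage and vessel wall. Adamts7 (ENSMUSG00000032363) was at 14.3, 7.67 and 7.88 in CC, 3.67 and 3.93 in CO, 11.5, 11.9 and 6.46 in OC, and 6.25, 5.53 and 7.35 in OO. CO was the lowest group, and OC.2 lay below OO.2. The average difference was -0.89 ± 0.20, a level 0.538 times as high, with an adjusted p of 0.0330. The call held in 3 of 11 fits without 1 library (without CC.1, OC.2 or OO.2), with differences from -1.03 to -0.75 and adjusted p from 0.0181 to 0.0875. Exons of Adamts7 overlap Tbc1d2b on the opposite strand. Tbc1d2b differed by -0.05 ± 0.10 (adjusted p 0.854).

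Of the other proteases, Adamts10, which associates with fibrillin, was at 6.97, 7.11 and 5.11 in CC, 10.0 and 10.5 in CO, 8.11, 7.00 and 8.51 in OC, and 8.68, 8.85 and 13.2 in OO. The diets did not overlap, with OO.0 just above OC.2, and the difference of 0.50 ± 0.14 did not pass (adjusted p 0.0820). Mmp2, a gelatinase made by stellate cells, was at 1.43, 2.06 and 2.63 in CC, 5.83 and 2.18 in CO, 2.47, 3.19 and 2.50 in OC, and 3.94, 3.87 and 7.03 in OO. All OO libraries were above all CC and OC libraries, while CO.1 was not. The difference was 0.72 ± 0.25 (adjusted p 0.144). Adamts6 was at 1 and 1.96 in CO, below every library of the other groups, the lowest of which held 2.13 (-0.45 ± 0.22, adjusted p 0.293), and Adamts1 differed by 0.08. The remaining 10 members of the class had differences from -0.33 to 0.52. Across the 16, the median was 0.28 with 10 above 0, and at an unadjusted p under 0.05 there were 5 higher and 1 lower.

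Tissue inhibitors of metalloproteinases block these enzymes. Timp3, a matrix-bound inhibitor, was at 29.2, 19.1 and 26.3 in CC, 18.3 and 17.0 in CO, 23.3, 17.2 and 21.7 in OC, and 17.2, 18.8 and 17.3 in OO. The CO and OO libraries stayed within 17.0 to 18.8, and OC.1 lay among them. The difference was -0.33 ± 0.12 (adjusted p 0.171). Timp2 was within 7.77 to 12.7 in all libraries (0.17 ± 0.15).

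None of the 17 integrin chains passed the test for the sons' diet, beside 3.96% of all genes, and with 17 genes no call lies near that share. At an unadjusted p under 0.05, 3 chains were higher and 2 lower, beside 1173 and 1166 of all 12086 genes. The chains' median difference was 0.03, with 9 above 0 and 8 below. Itgb1, the beta chain that pairs with most of the alpha chains, was within 213 to 262 in all 11 libraries, and its difference was -0.08 ± 0.09. Itga1, an alpha chain of a collagen receptor, was within 44.5 to 51.0 (-0.07 ± 0.07).

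Itga8 had the largest positive difference of the alpha chains. Its product pairs with beta 1, binds RGD ligands and is found on stellate cells. It was at 5.71, 13.3 and 10.1 in CC, 21.7 and 14.6 in CO, 13.6, 13.7 and 13.5 in OC, and 17.2, 15.8 and 24.2 in OO. Every obesogenic-fed library was above every control-fed one, with CO.1 nearest to OC. The difference was 0.68 ± 0.20 (adjusted p 0.0820), and 0.81 with an adjusted p of 0.0357 without CC.1. Itga5, the alpha chain of the main fibronectin receptor, was at 14.6, 15.7 and 15.6 in CC, 6.83 and 11.4 in CO, 21.0, 17.9 and 12.2 in OC, and 10.4, 14.7 and 10.5 in OO. It was lower in CO than in any CC or OC library, while OO.1 was above OC.2. The difference was -0.63 ± 0.17 (adjusted p 0.0652), and -0.80 without CO.1, resting on CO.0 as the only CO library. It passed without OC.2 (-0.74, adjusted p 0.0355).

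Itga6, an alpha chain of laminin receptors, was at 5.55, 6.17 and 5.39 in CC, 4.00 and 5.24 in CO, 6.93, 5.93 and 5.43 in OC, and 5.08, 4.42 and 3.92 in OO. Each library of obesogenic-fed sons was below each of control-fed sons, by a narrow gap at 5.24 and 5.39, and the difference was -0.35 ± 0.13 (adjusted p 0.183). Itga9 was within 23.6 to 36.1 in CC and 35.3 to 43.4 in OO, groups that differ in both diets. Its difference with the sons' diet, over all groups, was 0.25 (limma adjusted p 0.296).

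Itgb2, the beta chain of leukocyte integrins, was at 4.76, 8.60 and 6.77 in CC, 10.5 and 14 in CO, 9.16, 12.5 and 8.07 in OC, and 10.4, 12.2 and 11.3 in OO. CC was the low group and OC.1 lay among the high libraries. The difference was 0.52 ± 0.17 (adjusted p 0.109). Beside it, all 14 macrophage markers lay above 0 and 1 of them, Mpeg1, rose, where 2.24% of all genes did. The summed level of these markers was 469 to 624 in CC, 723 and 751 in CO, 546 to 846 in OC and 798 to 804 in OO. Their part in the Itgb2 values was not tested. Itgb5 differed by 0.17, Itgb2l by 0.43 and Itgb7 by -0.35, and none passed. Itgb1bp1, an adaptor that binds the beta 1 tail, was at 6.00 and 7.42 in CO and at 8.29 to 12.6 in the other groups (-0.37 ± 0.12, adjusted p 0.103).

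Set against CC, CO had 2 of 79 genes called, both higher, beside 1.79% of all genes. Adamtsl2 was higher by 1.07 ± 0.19 (adjusted p 0.025) and Col4a1 by 0.90 ± 0.17 (adjusted p 0.0327), and at an unadjusted p under 0.05 there were 22 members higher and 7 lower, beside 1010 and 1020 of all 12086 genes. Adamtsl2 lost the call without CC.2 (0.99), CO.0 (1.1) or CO.1 (1.04), with a difference about as large each time. Col4a1 lost it without CC.0 (0.99), CC.1 (0.81), CC.2 (0.90) or CO.1 (0.66). Without OC.0 and CO.1, or without OC.1 and CO.1, 0 members were called. Both missed it when only CC and CO were fitted (adjusted p 0.0592 and 0.0755). Col6a3 had the next lowest adjusted p, 0.0529, at 1.16 ± 0.27, followed by Adamts7 with 0.0700 at -1.22 ± 0.30. Without CC.1 Col6a3 passed (1.33, limma adjusted p 0.0460). It also passed without OO.0 or OO.2, with the same difference (limma adjusted p 0.0348 and 0.0342). The median over the 79 genes was 0.39 with 57 above 0, and over the collagens 0.63 with 16 of 20 above 0. Without CO.1 the members' median was 0.16.

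Set against OC, OO had 0 of 79 genes called, beside 0.165% of all genes, and 8 higher and 2 lower at an unadjusted p under 0.05, beside 555 and 413 of all genes. Col6a3 had the lowest adjusted p, 0.385, at 0.77 ± 0.24, then Col14a1 with 0.487 at 0.40 ± 0.14, Adamtsl2 with 0.525 at 0.46 ± 0.17 and Col4a1 with 0.551 at 0.40 ± 0.16. The median was 0.09 with 46 of 79 above 0 (0.18 with 52 above 0 without OO.0), and over the collagens 0.40 with 15 of 20 above 0. Integrin chains had a median of 0.25 in CO against CC and of -0.09 in OO against OC.

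Whether the sons' diet acted differently under the dams' diets was tested as an interaction. It called 0 of 79 genes, beside 0.0331% of all genes, with 0 higher and 3 lower at an unadjusted p under 0.05 (Lama2, Adamtsl2 and Col27a1), beside 278 and 273 of all genes. A lower value there means that the difference between OO and OC lay below that between CO and CC. That can be a smaller rise, a larger fall or a change of sign, as in Col27a1, which lay above 0 in CO against CC and below 0 in OO against OC. The median interaction was -0.16, with 22 of 79 above 0, and it turned on single libraries. It was -0.05 with 35 above 0 without CO.1, -0.02 with 37 above 0 without OC.0 and CO.1, -0.04 with 39 above 0 without OC.1 and CO.1, -0.29 without CO.0 and -0.26 without OO.2. So the counts of 2 and 0 are not shown to differ for any single gene.

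**Figure D4:**
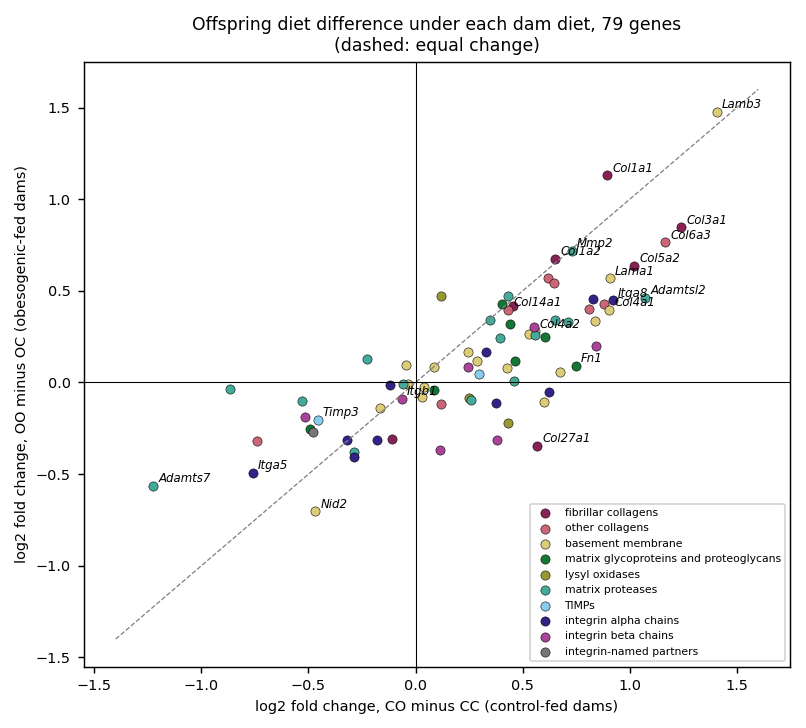
Each point is 1 of 79 genes, coloured by role, with its log2 difference between CO and CC on the horizontal axis and between OO and OC on the vertical axis, and a dashed line for equal differences. Col6a3 (1.16 and 0.77), Adamtsl2 (1.07 and 0.46) and Col4a1 (0.90 and 0.40) lie right of and below the line, Lamb3 and Col1a1 lie above it, and Adamts7 is at -1.22 and -0.56.

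The dams' diet gave no called member. In sons on control chow, OC against CC called 0 of 79, beside 0.0% of all genes (0 of 12086), with 8 higher and 0 lower at an unadjusted p under 0.05, beside 305 and 331 of all genes. In sons on the obesogenic diet, OO against CO called 0 of 79, beside 0.0414% of all genes, with 4 higher and 3 lower at an unadjusted p under 0.05, beside 397 and 318 of all genes. The average of both called 0, beside 0.0331%, with 6 higher and 1 lower at that p, beside 416 and 325 of all genes. Its median was 0.14 with 60 of 79 above 0, and 0.09 with 51 above 0 without CO.0. No member had all 6 libraries of obesogenic-fed dams above, or all below, the 5 libraries of control-fed dams, which 0.19% of all genes did in each direction. The median difference in OC against CC was 0.22 with 66 of 79 above 0, and in OO against CO it was 0.02 with 44 above 0. The latter had no fixed sign, with 0.14 without CO.1, 0.10 without OO.0, -0.04 without CO.0 and -0.02 without OO.1 or OO.2. The comparison of OC and CC shares its CC libraries with the comparison of CO and CC, so the values are not independent of it.

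Sparcl1 had the lowest unadjusted p for the dams' diet, with an average difference of 0.50 ± 0.12 (adjusted p 0.789). Col27a1 was at 11.6, 26.4 and 10.5 in CC, 24.7 and 19.9 in CO, 34.8, 31.0 and 30.5 in OC, and 21.4, 25.7 and 28.8 in OO. OC was above every other library, and CC.1 stood apart from CC.0 and CC.2. The difference between OC and CC was 1.09 (adjusted p 0.923), and without CC.1 it was 1.5 and passed with an adjusted p of 0.0228. The average for the dams' diet was 0.63 ± 0.21 (adjusted p 0.789), and 0.84 without CC.1 (adjusted p 0.0337). Fibrillar collagens had a median of 0.46 for the dams' diet with 7 of 7 above 0, among them Col5a2 (0.46), Col5a3 (0.42) and Col3a1 (0.67), and OC.1 was the highest control-fed library for Col1a1, Col1a2 and Col3a1. Itgb1bp1 differed by 0.29, Col14a1 by 0.25 and Lama5 by -0.37.

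Genes that act beside the members were read from lists, for the average of the sons' diet. Of all genes 3.96% were called, 2.24% higher and 1.72% lower, and no list was tested against these shares. Of 16 measured genes of collagen synthesis and maturation 1 rose, Serpinh1, the collagen chaperone Hsp47. It was at 5.23, 8.60 and 4.98 in CC, 25.2 and 18.1 in CO, 7.64, 12.3 and 12.0 in OC, and 14.4, 17.4 and 16.7 in OO. All obesogenic-fed libraries were above all control-fed ones, and the difference was 1.17 ± 0.18 (adjusted p 0.00523). Of 23 other matrix proteins 3 rose and 0 fell. Thbs1, thrombospondin, was at 2.49 to 3.33 in CC, 8.33 and 8.73 in CO, 2.79 to 4.11 in OC and 5.64 to 5.88 in OO, a difference of 1.04 ± 0.14 (adjusted p 0.00271). Emilin1, an elastic fiber protein (0.60, adjusted p 0.0228), and Agrn, a basement membrane proteoglycan (0.48, adjusted p 0.0302), also rose.

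Of 26 integrin adaptors and coreceptors, Fermt2 (kindlin-2, which activates integrins) rose by 0.35 (adjusted p 0.0404), Flna (filamin, an actin link) rose by 0.36 (adjusted p 0.0490), and the syndecan gene Sdc1 fell by 0.60 on the log2 scale (adjusted p 0.0259). Fermt2 was at 108 to 123 in CC, 175.5 and 183 in CO, 120.1 to 133 in OC and 114 to 142 in OO, so that only CO stood apart. Of the 5 measured plasminogen system genes Serpine2 rose by 1.46 (adjusted p 0.0182). Among 22 genes of the TGF-beta pathway and stellate cell activation 0 were called, beside 3.96% of all genes, with 14 of 22 above 0. At an unadjusted p under 0.05, 0 were higher and 2 lower. The latter were Smad7, an inhibitor of the pathway (-0.62, adjusted p 0.203), and Bambi, a decoy receptor (-0.40, adjusted p 0.179). Tgfb1 (0.38, adjusted p 0.272), Acta2 (0.33) and Ccn2 (0.00), like Smad7 and Bambi, are named after their values were seen. The 3 integrin genes outside the naming rule gave 0 calls and 1 higher at an unadjusted p under 0.05.

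Markers of the cells that make matrix are given beside the members. The 11 stellate cell markers, none at 0 in any library, had a summed level of 319 to 335 in CC, 396 and 399 in CO, 348 to 378 in OC and 385 to 416 in OO. Of them 10 of 11 lay above 0 and 1, Ngfr, was called higher, beside 2.24% of all genes. CC was the lowest group, and every obesogenic-fed library was above every control-fed one in this sum. The 6 measured portal fibroblast or myofibroblast markers all lay above 0, with 0 called and 2 higher at an unadjusted p under 0.05, and summed to 43.9 to 51.2 in CC, 62.0 and 119 in CO, 58.4 to 70.6 in OC and 64.0 to 92.5 in OO. Sinusoidal endothelial markers lay above 0 in 4 of 11, with 0 called and 0 at an unadjusted p under 0.05, and summed to 576 to 677 over all 11 libraries. The part of these cell types in the collagen values was not tested.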

How the data were processed

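Total RNA from liver was made into TruSeq libraries, per the labels' protocols. Alignment used Bowtie 1.2.3 and mm8, per the submitters' processing notes. The sources used here do not give the counter, annotation, strand setting or scaling. The authors deposited 1 table whose values are a signal: gene counts scaled library by library, as their steps show (96.6% to 97.6% of values below 1000 reads were whole multiples of 1 read within 0.05 reads). Column sums ran from 929699 to 1099404.

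Members and lists were chosen with earlier results of these data known. limma 3.58.1 in R 4.3.3 (moderated test with an intensity trend) was fitted to log2(value + 0.5) of 11 libraries with 1 mean per group, with 7 residual and 4.66 prior degrees of freedom. It gave 7 comparisons with Benjamini-Hochberg adjustment over 12086 genes at 0.05, and was tested on simulated data. The small pseudocount makes fold changes of low genes too small. The design had planned for 12 samples, and the 11 libraries found were used. A count-based test was not run, because low values between the steps left reads of some libraries unsure.

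Members were named if called, if among the 4 lowest p for the sons' diet or the 2 lowest for the dams' diet of their role, or if on a short list of well-known genes. Lamb3, Nid2, Col5a3, Col6a2, Col10a1, Col12a1, Col13a1, Col15a1, Lama2, Bgn and Dcn were named after their values were seen. Symbols were found for 11965 genes. Alternatives were other pseudocounts, scalings and filters, robust variance, single libraries left out, CO.1 left out together with OC.0 or OC.1, and only the groups compared. Besides Adamts7, Col4a1 and Col4a2, exons of Col10a1, Fn1, Itga4, Itga7, Itgb1bp1, Loxl3, Mmp19, Nid2 and Timp3 overlap a gene of the table on the opposite strand, so their reads there cannot be told apart.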

Additional observations from a re-analysis of the deposited data

How the results depend on the processing

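The average effect of the sons' diet called 5 members. Leaving out 1 library gave 3 to 9 (8 without OC.1), leaving out OC.0 and CO.1 gave 0, and leaving out OC.1 and CO.1 gave 2. CO against CC called 2, and leaving out 1 library gave 0 to 3, while OC.0 and CO.1 left out, OC.1 and CO.1 left out, and only the 2 groups compared gave 0 each. OC against CC and the average effect of the dams' diet called 0, and 0 to 1 with 1 library left out, the 1 being Col27a1 without CC.1. These fits have fewer libraries, and no further cause was tested. Of 144 counts under alternatives 126 were within 1.5 times of the reported count. Most of the 144 belong to comparisons that called 0 members, where 0 beside 0 counted as agreement. The share therefore says little about how far the calls held. Of 142 values of single members under alternatives all 142 kept their sign and 104 their side of the threshold. The 5 called members kept the call for the sons' diet under all 7 other choices of pseudocount, scaling, filter and variance. Col6a1 and Col14a1, not called in the main fit, passed under some of these choices. The choice without a filter only repeated the main fit, because all 12086 genes had passed the filter. That repeat is also among the counts and values above. No paired analysis was possible because the labels give the groups no replicate numbers that tie libraries together. Tests on recovered counts were not run. OO.1 was the shallowest library, and 25 members had a lowest group mean under 5, where 1 read moves a value most.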
